A study of Procambarus clarkii with 12 samples.

Results

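The data describe 62 transcript clusters of the crayfish hepatopancreas that had their lowest levels at 2 mg/L cadmium and higher levels without cadmium and at both higher doses. Members were chosen by their own measured values in all 12 libraries. The unit, CPM, was the estimated read count of a cluster as a share of its library's sum, times 1e6. A member had a mean from 5 to under 1000 CPM and all 3 libraries at 2 mg/L below the lowest of the other 9. Its mean log2(CPM + 1) in those 9 was at least 1 above that at 2 mg/L. Clusters whose controls or 10 mg/L libraries all lay at one end were to be left out, which removed 0. Members were 62 of 12004 clusters in that range of means (0.516%) and of 176325 clusters in all.

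The libraries were RNA-seq of the hepatopancreas of male red swamp crayfish, *Procambarus clarkii*, in groups named Control (0 mg/L cadmium), Cd2 (2 mg/L), Cd5 (5 mg/L) and Cd10 (10 mg/L), each with 3 libraries, after 72 h. Strain, age and any pooling of animals were not given in the sources used here. The p-values therefore rest on differences among these libraries, which may be technical. The series title names oxidative stress, tissue damage and transcript changes under cadmium as its subject. The hepatopancreas of decapods secretes digestive enzymes, stores lipid and glycogen, and takes up and stores metals. Cadmium has no known role in decapod metabolism. In animal cells it is bound by metallothionein and glutathione and raises oxidative damage. The identifiers carry no gene name. In RefSeq's gene list for *P. clarkii* (assembly FALCON_Pclarkii_2.0) 0 of them were found. No member is therefore given a name or a function, and the tissue could not be checked against marker genes. In bulk tissue, fewer cells of a type and less RNA per cell cannot be told apart.

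Library totals were 15835744 to 17480371 counts at 2 mg/L and 16083833 to 21653867 in the other 9. The mean total at 2 mg/L was 1.67e+07, beside 1.91e+07 in the other 9, a difference that did not pass the test (exact permutation test over 220 sets, two-sided p = 0.127). The 10 mg/L libraries had like totals, 16083833 to 16880989. Every control and 5 mg/L library had a higher total than any at 2 mg/L, from 19011151 to 21653867. Clusters of 5 to under 1000 CPM were at 0 in 6.84% to 7.21% of cases in the 2 mg/L libraries and in 6.11% to 7.32% in the others. All 3 libraries were at 0 for 223 such clusters at 2 mg/L, against 117 in the controls, 126 at 5 mg/L and 130 at 10 mg/L. Under the same limits on mean and size, 85 clusters were lowest in the controls, 26 at 5 mg/L and 158 at 10 mg/L, and 115 were highest at 2 mg/L.

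The members ran from modest differences to complete absence at 2 mg/L. The log2 difference, other 9 libraries minus 2 mg/L, had a median of 1.86 with quartiles of 1.37 and 2.94, and its highest value was 7.65. It lay below 2 in 35 members, from 2 to 4 in 18 and at 4 or above in 9. Of the 62, 9 had a mean of at least 100 CPM, 33 of 10 to 100 CPM and 20 below 10 CPM. Counts were present in all 3 libraries at 2 mg/L in 38 members, absent from 1 in 9, absent from 2 in 8 and absent from all 3 in 7. Summed over members, the level was 2980 to 3823 CPM in the controls, between 1002 and 1372 CPM at 2 mg/L, 3344 to 4342 CPM at 5 mg/L and 4898 to 5422 CPM at 10 mg/L.

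**Figure D1:**
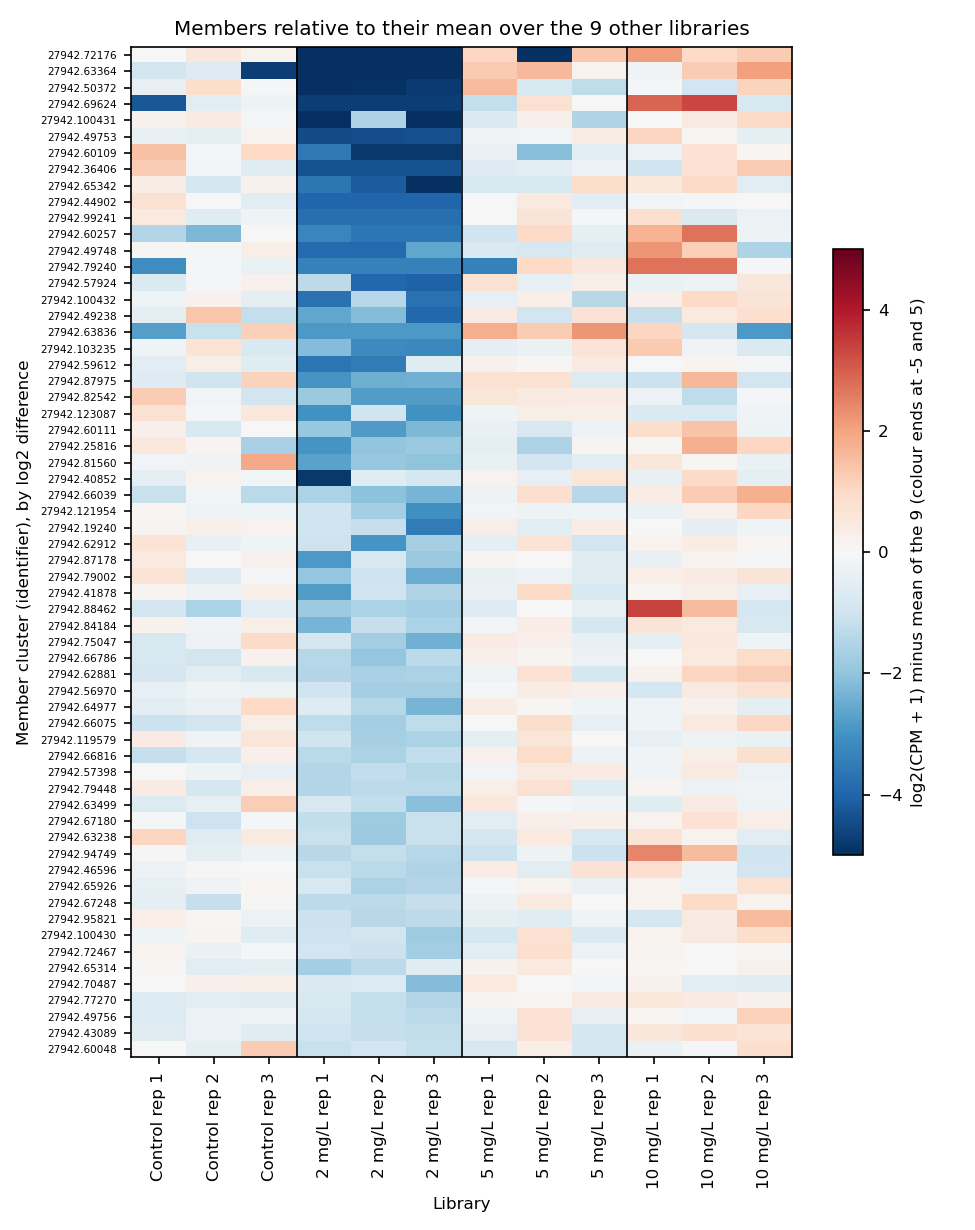
Each row is 1 of the 62 members, by falling log2 difference, and each column 1 of the 12 libraries. Colour gives log2(CPM + 1) minus the member's mean over the 9 libraries not at 2 mg/L, with colours ending at -5 and 5. The 3 columns at 2 mg/L are blue throughout by the choice of members. The darkest blue cells elsewhere mark members nearly missing from a library outside 2 mg/L.

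Of the 4 members with the highest mean CPM, which is not a level per length, 3 had counts in every library. Cluster-27942.65926 had 544, 637 and 765 CPM in the controls, 413, 241 and 264 CPM at 2 mg/L, 704, 815 and 580 CPM at 5 mg/L and 819, 619 and 1228 CPM at 10 mg/L. In CPM its 2 mg/L libraries stood below all others, the nearest being control replicate 1. In the deposited FPKM, a level scaled by length and depth, they did not. There, 2 mg/L replicate 1 had 7261 FPKM and 10 mg/L replicate 2 had 6998 FPKM. The fitted log2 fold change of 2 mg/L against the mean of the other 3 groups was -1.35 with standard error 0.35 (edgeR). Cluster-27942.62881 had 177, 217 and 187 CPM in the controls, 114, 103 and 107 CPM at 2 mg/L, 280, 535 and 174 CPM at 5 mg/L and 368, 665 and 757 CPM at 10 mg/L. Its 2 mg/L libraries were close together, while every 10 mg/L library lay above every control (log2 fold change at 2 mg/L -1.69, standard error 0.42, edgeR). Cluster-27942.64977 had 185, 211 and 533 CPM in the controls, 169, 98.9 and 52.2 CPM at 2 mg/L, 346, 287 and 227 CPM at 5 mg/L and 227, 311 and 195 CPM at 10 mg/L. The highest 2 mg/L library reached to within a factor of 1.09 of the lowest control, and the mean difference was -1.47 on the log2 scale with standard error 0.44 (edgeR).

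Cluster-27942.72176, the other abundant member and the one with the largest difference, had no count in any library at 2 mg/L. It had 203, 297 and 224 CPM in the controls, 407, 0.156 and 507 CPM at 5 mg/L and 843, 392.2 and 479 CPM at 10 mg/L. Thus 1 library at 5 mg/L, with 3.38 estimated counts, was nearly as empty as those at 2 mg/L. Against a floor of 3 counts over the 2 mg/L group, 0.0597 CPM, the mean of the other 9 was at least 6234-fold higher. Such floors cover counting error only. The other 6 members with no count at 2 mg/L were at least 203-fold to 1090-fold above that floor. Near absence from at least 1 library outside 2 mg/L occurred in 5 members, whose lowest value there was under 10 counts. Besides Cluster-27942.72176, Cluster-27942.63836 had 0.02 counts in 10 mg/L replicate 3 and 1.89 in control replicate 1. Cluster-27942.79240 had 0.07 counts in 5 mg/L replicate 1 and 4.34 in control replicate 1. Cluster-27942.69624 had 7.06 in control replicate 1 and Cluster-27942.63364 had 7.52 in control replicate 3. The order that made these 5 clusters members rested on those few estimated reads, and the other 57 had at least 10 counts in each of the 9 libraries.

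Cluster-27942.63364 had the second largest difference. It had 18.3, 22.1 and 0.386 CPM in the controls, 0, 0 and 0.0709 CPM at 2 mg/L, 89.1, 111 and 40.3 CPM at 5 mg/L and 31.1, 86.4 and 148 CPM at 10 mg/L. All 6 libraries at 5 and 10 mg/L lay above the controls. Cluster-27942.50372 had 35.1, 88.0 and 44.4 CPM in the controls, 0.380, 0.559 and 0.760 CPM at 2 mg/L, 142, 27.5 and 18.9 CPM at 5 mg/L and 44.9, 23.7 and 104 CPM at 10 mg/L. Its 2 mg/L libraries kept a low level in all 3 replicates, with a gap of 24.8-fold to the next library, while the other 3 groups overlapped.

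In the edgeR quasi-likelihood fit over all 57151 clusters tested, 4 were called lower at 2 mg/L than the mean of the other 3 groups (0.00700% of those tested) and 1 higher, at an adjusted p under 0.05. Of the 4, 3 were members, which were chosen on this same contrast, so the count carries no information about them. All 62 members had passed the low-count filter. The 3 were Cluster-27942.49753, Cluster-27942.44902 and Cluster-27942.99241. Cluster-27942.49753 had 36.7, 35.4 and 54.6 CPM in the controls, 1.20, 1.30 and 1.36 CPM at 2 mg/L, 42.2, 43.6 and 61.95 CPM at 5 mg/L and 102, 50.2 and 34.4 CPM at 10 mg/L. Its 3 libraries at 2 mg/L agreed closely, and the fitted log2 fold change was -5.28 with standard error 0.43 (edgeR). Cluster-27942.44902 had 25.2, 14.7 and 9.35 CPM in the controls, no count at 2 mg/L, 14.8, 20.9 and 9.85 CPM at 5 mg/L and 13.3, 13.5 and 14.5 CPM at 10 mg/L. Its levels in the other 3 groups overlapped fully, at least 253-fold above the floor. Cluster-27942.99241 had 18.1, 8.01 and 10.8 CPM in the controls, no count at 2 mg/L, 12.3, 19.9 and 12.1 CPM at 5 mg/L and 22.3, 7.10 and 9.93 CPM at 10 mg/L, at least 224-fold above the floor. Leaving out control replicate 2 left 0 members called, with 54 lower at an unadjusted p under 0.05, beside 3.02% of all clusters tested. Leaving out control replicate 1 left 1, as did leaving out 5 mg/L replicate 1 and leaving out 10 mg/L replicate 3. Without 2 mg/L replicate 2 there were 5, and DESeq2 called 49 of the 62 lower, beside 1.94% of all clusters to which it gave an adjusted p (2 members had none). The members were chosen on this contrast, and nothing is read from these counts.

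**Figure D2:**
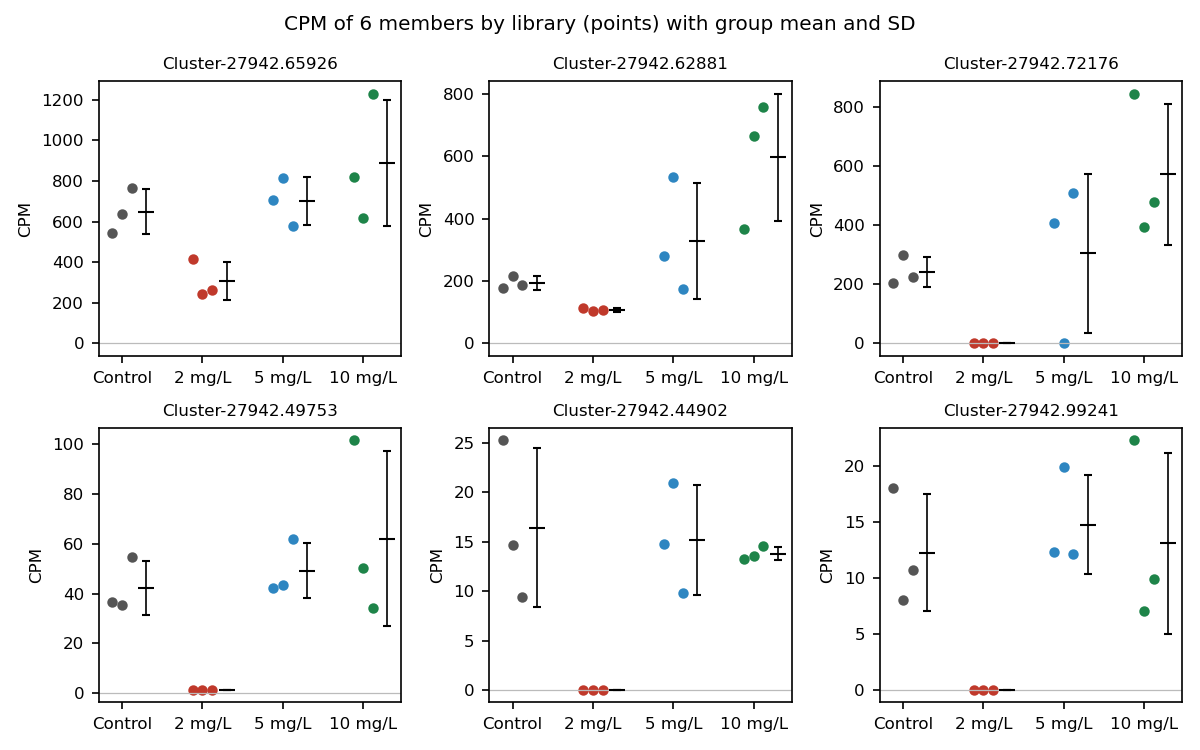
CPM of 6 members (y axes, linear, one scale per panel) in the control, 2, 5 and 10 mg/L groups, with a point per library and the group mean ± SD (n = 3) beside it. In each panel the 3 points at 2 mg/L are the lowest, and for Cluster-27942.72176 the 5 mg/L replicate 2 library lies at 0.156 CPM.

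At the lower limit of size the separation was narrow. The members just inside the limit were Cluster-27942.60048 and Cluster-27942.43089, with log2 differences of 1.09 and 1.12. Cluster-27942.60048 had 17.0 to 19.99 CPM at 2 mg/L and 22.0 to 99.1 CPM elsewhere, and Cluster-27942.43089 had 1.89 to 2.40 CPM and 2.84 to 10.8 CPM. Just outside were Cluster-27942.71614 and Cluster-27942.72068, at 0.99 and 0.97. At the lower limit of abundance the member with the lowest mean had 5.00 CPM, and the nearest cluster below the limit, Cluster-27942.88967, had 4.91 CPM. In 15 members the lowest of the other 9 libraries was under 1.1 times the highest at 2 mg/L, and in 26 it was at least 1.5 times as high. The members steadiest over the other 9 libraries were Cluster-27942.65314 and Cluster-27942.87178, with coefficients of variation of 21.5% and 23.5%. Cluster-27942.65314 had 27.7, 37.3 and 60.2 CPM at 2 mg/L.

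The spread of the members within groups is set beside that of other clusters of like abundance. The median coefficient of variation was 40.0% in the controls, 39.6% at 5 mg/L and 40.7% at 10 mg/L, beside 34.5%, 40.1% and 48.4% over all clusters of 5 to under 1000 CPM. At 2 mg/L it was 48.4% over the 55 members with counts there, beside 33.8% over all. The members were chosen by low values in that group, and the part of this in the figure was not tested. The 2 mg/L libraries of single members differed widely. Cluster-27942.40852 had 0, 17.7 and 14.3 CPM at 2 mg/L and 19.1 to 53.8 CPM elsewhere, so 1 library was empty and the other two lay near the rest. In contrast, Cluster-27942.100431 had 22.0 CPM in 2 mg/L replicate 2 and no count in the other two.

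Since the members were chosen on all 12 libraries, the rule was also applied with each library left out, and the left-out library was then read. Without 2 mg/L replicate 1, 180 clusters met the rule, and in 66 of them (36.7%) the left-out library lay below all 9 others. Over all 11954 clusters in the range of means it did so in 4.78%. Without replicate 2 the numbers were 69 of 139 (49.6%, beside 7.22% of all) and without replicate 3 they were 67 of 137 (48.9%, beside 8.43%). Of those in which it lay there, 60, 62 and 59 were among the 62 members, which were chosen on all 12 libraries. The share over all clusters is not what no change would give, since the other 2 libraries of the group were already the lowest of 11. By order alone, a library interchangeable with the rest would take 3 of 12 places below the other 9, or 25%. This value leaves out the limit on size, which the rule also set. The 3 shares lay above that value and below 50%, and the difference was not tested, since clusters are not independent. The median log2 difference of the left-out library from the 9 was 0.81, 0.99 and 1.09 in chosen clusters and -0.21, -0.02 and 0.02 over all clusters.

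Libraries of the other groups were left out in the same way. Of the clusters chosen without one of these 9, the left-out library lay above all 3 at 2 mg/L in 73.3% (5 mg/L replicate 3) to 86.8% (control replicate 1). Over all 9 libraries it did so in 521 of 651 chosen clusters (80.0%). By order alone, 9 of 12 places lie there, or 75%. That value leaves out the limit on size, so it is not what no change would give under the whole rule. The difference was not tested. Added over the 3 lists for the 2 mg/L libraries, which overlap as well, 202 of 456 choices held (44.3%). For the clusters lowest in each group, by the same procedure with no cluster set aside, the share was 44.2% in controls. It came to 43.5% when 2 mg/L was the lowest group and to 29.5% when 5 mg/L was. The highest share, 50.2%, belonged to clusters lowest at 10 mg/L, and no test of a difference between groups was made. Libraries of 1 group share their dose and whatever else was common to the group, and these cannot be told apart.

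**Figure D3:**
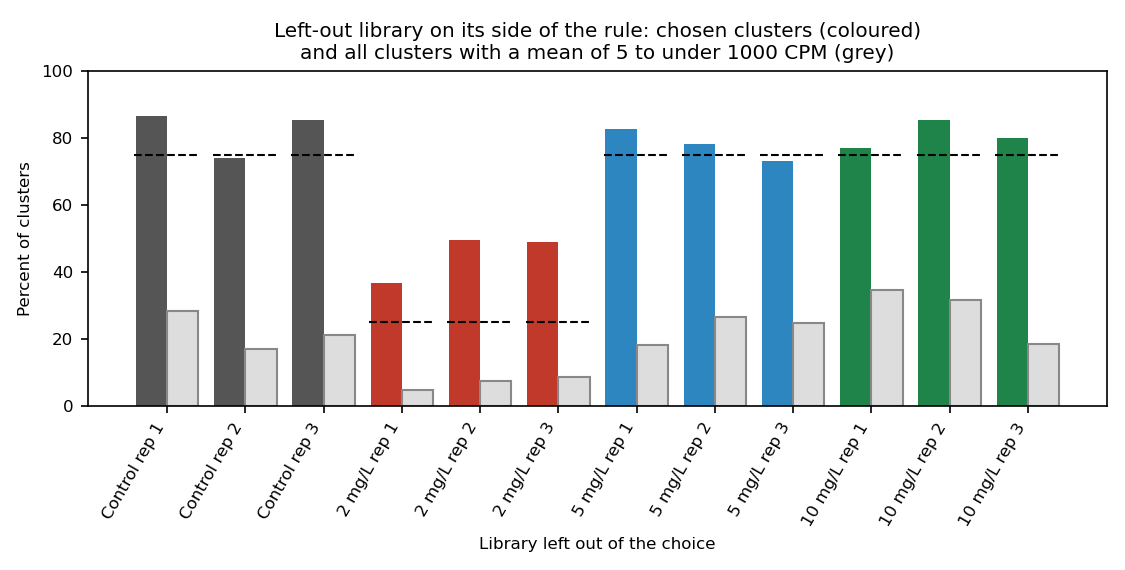
Percent of clusters (y axis) in which the library left out of the choice (x axis) lay on its side of the rule, below the other 9 for the 2 mg/L libraries and above all 3 at 2 mg/L for the rest. Coloured bars are clusters chosen without that library, grey bars all clusters of 5 to under 1000 CPM, and dashed lines the share by order alone, 25% or 75%. Chosen clusters reached 36.7% to 49.6% at 2 mg/L and 73.3% to 86.8% in the other libraries.

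In a test among the other 3 groups few of all clusters were called, and no member was. An F test of equal levels in the controls and at 5 and 10 mg/L called 0 of 62 members and 5 of all 57151 clusters (0.00875%, edgeR adjusted p under 0.05). With so low a share over all clusters, nothing about the members is read from the 0. At an unadjusted p under 0.05 it found 5 members, 8.06% of 62, beside 8.57% of all clusters tested. A likelihood ratio test in DESeq2 called 3 members, beside 4.34% of all clusters with an adjusted p. Without 10 mg/L replicate 3 the edgeR F test called 1 member, beside 252 of all 69180 clusters tested. The smallest adjusted p of a member was 0.423. It belonged to Cluster-27942.88462, which had 0.489 to 2.09 CPM in the controls, 1.82 to 3.51 CPM at 5 mg/L and 44.5, 12.2 and 1.42 CPM at 10 mg/L. The other 4 with an unadjusted p under 0.05 were Cluster-27942.62881, Cluster-27942.77270, Cluster-27942.66039 and Cluster-27942.94749. Cluster-27942.77270 had 56.1 to 63.5 CPM in the controls, 95.2 to 123 CPM at 5 mg/L and 105 to 132 CPM at 10 mg/L, so its controls lay below both higher doses without overlap (edgeR adjusted p = 0.479). Cluster-27942.94749 had 91.7 and 50.2 CPM in 10 mg/L replicates 1 and 2 but 7.51 CPM in replicate 3, below all 3 controls.

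As a set, the members were more often higher at 10 mg/L than in the controls. The difference in mean log2(CPM + 1) was above 0 in 44 of 62 members (71.0%), beside 52.6% of all clusters in the range of means, with medians of 0.29 and 0.05. It was at least 1 in 12 members, and at most -1 in 0 of them, beside 16.6% and 13.7% of all clusters. The 5 mg/L group was above the controls in 35 members (56.5%, beside 52.5%), with a median of 0.08 beside 0.04. The 10 mg/L group had the highest mean of these 3 groups in 35 members (56.5%, beside 39.2% of all). With TMM scaling the median log2 fold change at 10 mg/L against the controls was 0.32 over members and -0.003 over all clusters tested. The median member level was 24.7, 29.2 and 19.8 CPM in the 10 mg/L libraries, beside 15.1 to 17.5 CPM in the controls and 16.2 to 18.9 CPM at 5 mg/L. These shares are descriptions of chosen clusters and were not tested, and the 2 differences share the control libraries.

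**Figure D4:**
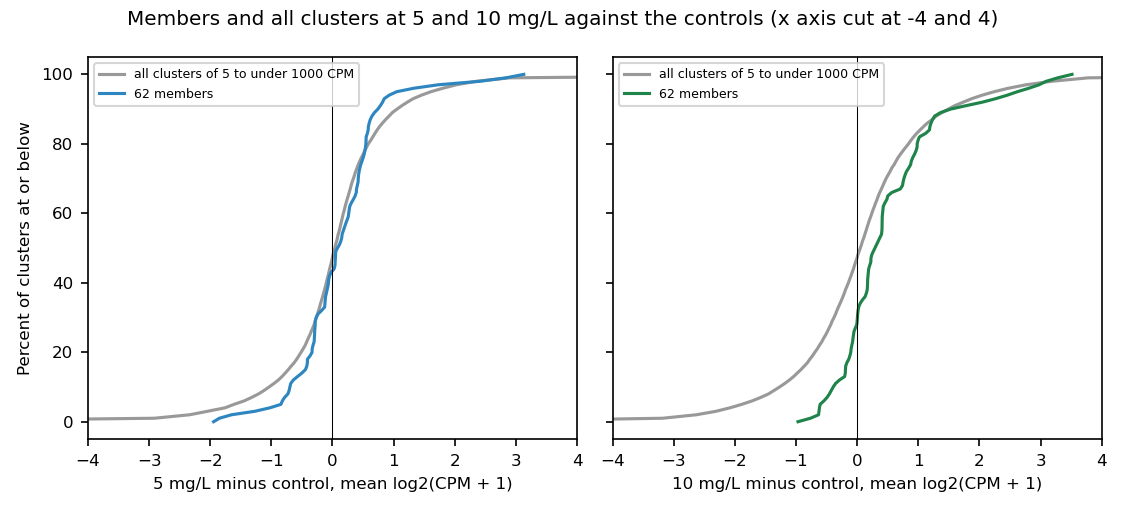
Percent of clusters (y axis) at or below a given difference in mean log2(CPM + 1) from the controls (x axis, cut at -4 and 4), at 5 mg/L on the left and 10 mg/L on the right. Coloured lines are the 62 members and grey lines all 12004 clusters of 5 to under 1000 CPM. At 10 mg/L the member line lies to the right, with a median of 0.29 beside 0.05.

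Beyond their low level at 2 mg/L the members had little in common in how they varied. Over the other 9 libraries the median Spearman correlation of 1891 member pairs was 0.07 with quartiles of -0.22 and 0.35, beside 0.03, -0.25 and 0.32 for all pairs of clusters in the range. A value of at least 0.8 was reached by 47 member pairs, and -0.5 or less by 143. The shares over all pairs of clusters are not given here, so nothing is read from these counts. The closest pair was Cluster-27942.66075 and Cluster-27942.66816, with a rho of 0.98. Cluster-27942.66075 ran from 56.9 to 251 CPM over the 9 libraries and Cluster-27942.66816 from 18.1 to 77.6 CPM. Cluster-27942.63499 and Cluster-27942.75047 had a rho of 0.93, with their highest levels, 111 and 74.3 CPM, both in control replicate 3. Cluster-27942.69624 and Cluster-27942.79240, at 0.92, were both highest in 10 mg/L replicates 1 and 2, with 193 and 262 CPM and with 67.0 and 66.7 CPM. These correlations are over the same 9 libraries and share their depth.

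Identifiers consist of 2 numbers, and all 62 members had the same first number, as did 99.2% of all clusters in the range. The files do not say whether clusters with neighbouring second numbers are related in sequence. Of the 62, 8 had another member within 5 numbers. No like share for other sets of clusters is given here, so nothing is read from this count. Within 5 numbers of members lay 113 other clusters of 5 to under 1000 CPM. Their log2 difference, other 9 minus 2 mg/L, was above 0 in 56 (49.6%, beside 44.9% of all) and at least 1 in 13 (11.5%, beside 10.7%). It was at most -1 in 17 (15.04%, beside 9.42%). Of the 113, 3 were highest at 2 mg/L by the mirror of the rule (2.65%, beside 0.958% of all), and they lay next to 5 members.

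These 3 neighbours were picked for the opposite order, so that a sum with the member is more level follows in part from the choice. Cluster-27942.99240 had 15.03, 13.8 and 15.4 CPM at 2 mg/L, where Cluster-27942.99241, 1 of the 3 members called, had no count. In the other 9 libraries it had 0 to 8.14 CPM. The implied lengths were 1888 and 1813 bases. Their sum was 14.8 ± 0.87 CPM at 2 mg/L (SD, n = 3) beside 16.7 ± 3.79 CPM in the other 9 (SD, n = 9), with the 2 mg/L libraries inside the range of the rest, 10.1 to 22.3 CPM.

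Cluster-27942.36410 and the member Cluster-27942.36406 showed the same arrangement. Cluster-27942.36406 had no count at 2 mg/L and 9.43 to 49.4 CPM elsewhere. Cluster-27942.36410 had 31.5, 31.1 and 22.5 CPM at 2 mg/L and 0.335 to 18.3 CPM elsewhere, and the implied lengths were 791 and 698 bases. Their sum was 28.4 ± 5.07 CPM at 2 mg/L (SD, n = 3) beside 32.7 ± 10.4 CPM in the other 9 (SD, n = 9), again overlapping.

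The third neighbour, Cluster-27942.100433, lay next to 3 members with consecutive numbers. It had 40.7, 33.7 and 28.7 CPM at 2 mg/L, 21.3 CPM in 5 mg/L replicate 3, 4.23 CPM in 10 mg/L replicate 2 and no count in the other 7 libraries. Cluster-27942.100431 had 63.4 to 87.1 CPM in the controls, 0, 22.0 and 0 CPM at 2 mg/L, 22.5 to 79.4 CPM at 5 mg/L and 65.2 to 128 CPM at 10 mg/L. It was thus lowest outside 2 mg/L in the same 5 mg/L library where its neighbour was highest. The sum of both was 28.7 to 55.7 CPM at 2 mg/L and 39.1 to 128 CPM elsewhere, so the groups overlapped although the 2 mg/L mean stayed lower (41.7 ± 13.5 CPM, SD, n = 3, beside 75.1 ± 27.0 CPM, SD, n = 9). Cluster-27942.100432, at 0, 4.01 and 0 CPM, and Cluster-27942.100430, at 4.42, 4.86 and 2.22 CPM at 2 mg/L, were lower in level. Each summed singly with the same neighbour, they were higher on average at 2 mg/L than elsewhere. For Cluster-27942.100432 the sum was 35.7 ± 6.25 CPM (SD, n = 3) beside 16.5 ± 7.28 CPM (SD, n = 9). Its lowest 2 mg/L library, 28.7 CPM, lay below the highest elsewhere, 29.7 CPM. For Cluster-27942.100430 the sum was 38.2 ± 7.11 CPM (SD, n = 3) beside 13.9 ± 7.26 CPM (SD, n = 9). Here the groups did not overlap, with 30.9 CPM at least at 2 mg/L and 27.0 CPM at most elsewhere. The sum over all identifiers within 5 numbers of Cluster-27942.100431 holds the 3 members and this neighbour once. It was lower on average at 2 mg/L, with a log2 difference of 0.87. The groups overlapped, with 70.2 CPM at most at 2 mg/L and 53.9 CPM at least elsewhere.

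**Figure D5:**
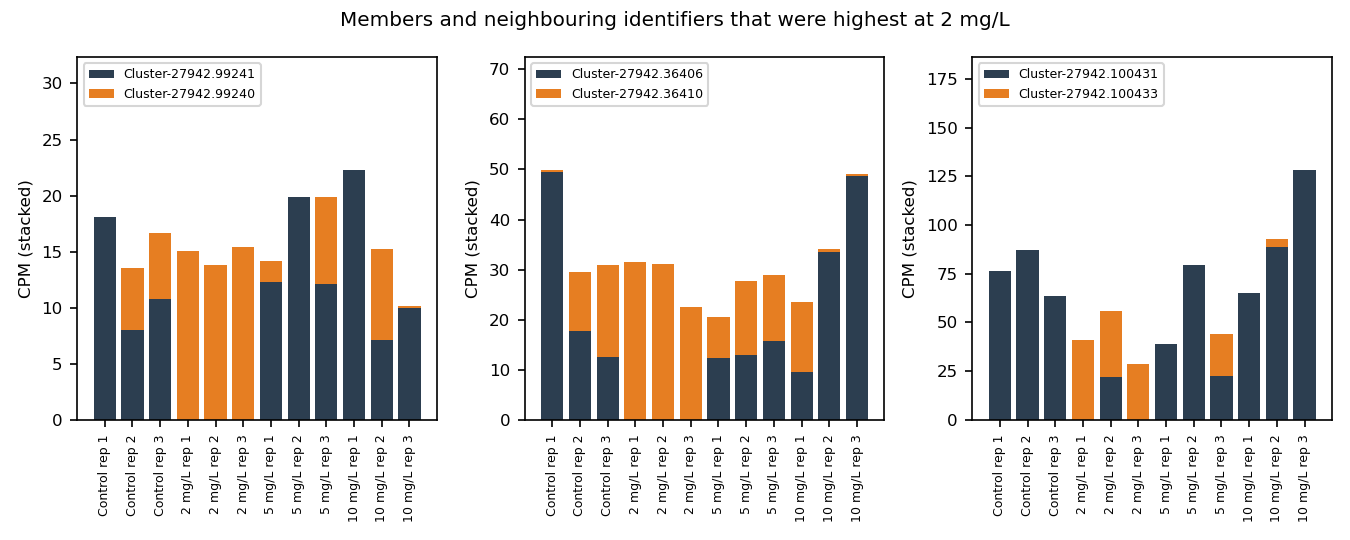
Stacked CPM (y axes, linear) of 3 members (dark) and of a neighbouring identifier that was highest at 2 mg/L (orange) in each of the 12 libraries (x axis). At 2 mg/L the orange part makes up the whole bar for Cluster-27942.99241 and Cluster-27942.36406, and their bars there, 13.8 to 15.4 and 22.5 to 31.5 CPM, lie within the range of the other libraries.

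Most members did not keep their order when neighbours were added. Summed with all identifiers within 5 numbers, 13 members stayed lowest at 2 mg/L in all 3 libraries, and 7 of these also kept a log2 difference of at least 1. Around Cluster-27942.49753 the summed level was 32.7 CPM at 2 mg/L, beside 176 CPM in the other 9 on average, a log2 difference of 2.40. That sum also holds the members Cluster-27942.49748 and Cluster-27942.49756 and a further cluster, Cluster-27942.49755, with 4.24, 28.2 and 5.85 CPM at 2 mg/L and 14.8 to 190 CPM elsewhere. Around Cluster-27942.44902 the sum was 5.23 CPM at 2 mg/L and 17.1 CPM elsewhere, and it stayed lowest at 2 mg/L. The sums around Cluster-27942.60109 and Cluster-27942.60111, 2 further neighbouring members, differed by 1.55 and 1.81 on the log2 scale, and the second stayed lowest. Around Cluster-27942.72176 the sum was 4.53 CPM at 2 mg/L and 379 CPM elsewhere, overlapping through 5 mg/L replicate 2. Over all 62 members the median log2 difference of such sums was 0.59, beside 1.86 for the members alone, and in 5 it was 0 or below. Sums with neighbours also add unrelated clusters, whose part was not tested.

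Members also differed from other clusters in the form of their deposited counts and in implied length, which were not tested. Estimated counts that are not whole numbers (by more than 0.005) made up at least 50% of a cluster's nonzero values in 57 of 62 members (91.9%, beside 74.3% of all clusters in the range). All nonzero counts were whole in 4 members (6.45%, beside 19.5%). The implied length, worked out from counts and FPKM, had a median of 1385 bases with quartiles of 554 and 2437, beside 1828, 853 and 3127 bases over all. It was under 200 bases in 10 members (16.1%, beside 8.15%), down to 4.26 bases, which cannot be the length of a transcript and makes their level per length very high. Among these was Cluster-27942.65926, with 63.6 bases implied and a mean of 9162 FPKM, beside 498 FPKM for Cluster-27942.62881 and 29.9 FPKM for Cluster-27942.49753. The members separated without overlap at 2 mg/L were among 93 such clusters in the range (0.775%), of which 31 had a log2 difference under 1.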

How the data were processed

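RNA-seq libraries of 12 samples were analysed, grouped by their titles. The authors deposited, per library, an estimated count per gene cluster that was not normalized, and FPKM, scaled by length and depth, per the file headers. Assembler, aligner, counting tool and filters were not given in the sources used here. Members and comparisons were chosen with earlier results of these data known. CPM was computed from the estimated counts with no rounding. For tests, counts were rounded, filtered with filterByExpr (minimum count 10, minimum total 15, leaving 57151 clusters), scaled by TMM and fitted with edgeR 4.0.16 in R 4.3.3 (glmQLFit, 1 coefficient per group, all libraries; glmQLFTest), with Benjamini-Hochberg adjustment over all clusters tested. Standard errors given with edgeR were derived from its results, as the absolute log2 fold change over the square root of the F statistic. The scripts were tested on simulated data that varied less between libraries than these data. Implied length was the median over libraries of count over FPKM, scaled by the library total, where FPKM was at least 1. Named members were the 4 with the highest means, the 3 with the largest differences, the 2 steadiest, 2 inside and 2 outside the size limit and 1 known from earlier results. All others were named after their values were seen. Alternatives were DESeq2 1.42.0, its size factors, no low-count filter, fits leaving out 1 library each, and a block for replicate number. The TMM factors ran from 0.807 (10 mg/L replicate 3) to 1.15. Scripts ran under Python 3.11.15 with scipy 1.17.1, pandas 2.3.3, matplotlib 3.10.9 and numpy 2.4.6.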

Additional observations from a re-analysis of the deposited data

How the results depend on the processing

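The rule gave 62 clusters. TMM scaling and DESeq2 size factors gave 69 each, 55 and 56 of them among the 62. FPKM as deposited gave 54, all among the 62, but FPKM rescaled to the same sum in each library gave 38, of which 35 were shared. Cluster-27942.65926, the member with the highest mean CPM, was not among the 54. A log2 difference of at least 2 left 27, and a mean from 10 CPM left 42. A lowest other library of at least 1.5 times the highest at 2 mg/L left 26, and one of at least 10 counts 57. These 2 settings, the unscaled FPKM and the following of called members were added after the data were seen. With each library left out the rule gave 65 to 180 clusters, fewer conditions being asked of fewer libraries. With a difference of at least 2, left-out libraries of the other groups held in 75.7% of choices, added over the overlapping lists, against 80.0%. At 2 mg/L they held in 39.9%, against 44.3%.

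Clusters called at 2 mg/L against the mean of the other 3 groups numbered 5 of 57151 by edgeR and 1447 of 51519 by DESeq2. They numbered 8 of 164856 with no low-count filter and 0 to 12 with each library left out. Members among them numbered 3, 49 by DESeq2 and 0 to 5 with each library left out. Members were chosen on this contrast, so nothing is read from their counts here. In the F test over the other 3 groups edgeR called 5 clusters, DESeq2 2427, no low-count filter 0 (12302 at an unadjusted p under 0.05), and left-out libraries 0 to 252, the highest without 10 mg/L replicate 3. Members called there were 0 by edgeR, beside 0.00875% of all clusters tested, and 3 by DESeq2, beside 4.34% of those with an adjusted p. With each library left out they numbered 0 to 1, the 1 beside 252 of 69180 clusters tested. With the replicate number as a block edgeR called 0 clusters in both tests, 0 members included, with 3185 and 3427 clusters, and 56 and 5 members, at an unadjusted p under 0.05. Libraries with the same number did not deviate together (18 correlations, -0.07 to 0.05). What a number stands for is not given in the sources used here, and whether equal numbers shared a batch was not tested. The cause of these shifts was not tested. In the 7 members with no count at 2 mg/L, depth leaves the fold bounded only by the floor of 3 counts.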
